A study of Lycium barbarum and Lycium ruthenicum with 30 samples.

Results

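In fruit of red wolfberry (Lycium barbarum, LB), 200 unigenes stood out for a level at the green-fruit stage above the mean level of each stage before and after it. A unigene is a cluster of assembled transcripts that stands for a gene. The 200 were taken from 326276 unigenes by their level in the LB libraries alone. Each was at 5 FPKM or more in all 3 libraries of stage S2, which 28931 unigenes met, and the 200 had the highest scores among these. FPKM counts the fragments of a unigene per kilobase of its length and relative to all that were mapped in the library. The score is the lowest log2 (FPKM + 0.5) of the 3 S2 libraries minus the highest of the means of S1, S3, S4 and S5. It ran among members up to 6.25 and down to 1.86, with a median of 2.62. The members were thus chosen by their FPKM in LB, which is described without a test. The same unigenes were then followed in black wolfberry (L. ruthenicum, LR), whose libraries the choice did not use and in which the S2 level was tested.

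RNA of whole fruit was sequenced at S1 (young fruit, 9 to 12 days after flowering), S2 (green, 14 to 19 days), S3 (colouring, 20 to 26 days), S4 (immature, 30 to 37 days) and S5 (mature, 34 to 45 days), with fruit from 3 trees per species and stage. The study names fewer shrubs per species than samples, so some trees served at more than 1 stage, but which ones is not stated and the tree numbers are not said to carry over between stages. The p-values measure the spread between trees of 1 site. The LB shrubs were cultivated 5-year-old plants of a nursery that were watered regularly, and the LR shrubs grew wild at a saline desert site, so the part of the species, of the place and of the water supply cannot be told apart. Libraries are named by species, stage and tree number, so that LB2-1 is the first LB library of S2. The deposited columns carry the codes R and B, which the legend in the supplement of the study gives to LB and to LR, whereas the titles of the deposited samples name the opposite species. The code was followed here. In mature fruit, chalcone synthase (CHS, TRINITY_DN73389_c1_g2), the entry enzyme of flavonoid synthesis, was at 41.2, 29.6 and 47.2 FPKM in the R libraries and at 2511, 2462 and 5269 in the B libraries. Leucoanthocyanidin dioxygenase (LDOX, TRINITY_DN68066_c0_g2), which makes anthocyanidins, was at 1.46, 1.46 and 1 FPKM in the R libraries and at 2757, 2358 and 3730 FPKM in the B libraries. The high levels of both pigment genes thus lay on the side coded as the black fruit. The supplement of the study lists the same values for both genes, those of the R libraries as LB and those of the B libraries as LR.

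In berries of the nightshade family, to which both species belong, the young fruit grows first by cell division and then by cell expansion while it is still green and its plastids are chloroplasts. Seeds fill in the same period. Pigments, sugars and soft cell walls come later, when the chloroplasts turn into chromoplasts and, in dark berries, anthocyanins collect in the vacuole. A transcript that is high at S2 alone belongs to the span between early growth and colouring. RNA came from whole fruit, in which fewer cells of a type and less RNA per cell cannot be told apart.

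The 200 members took a large part of the LB transcriptome at S2 and little of it elsewhere. Their share of the summed FPKM of a library was 2.24%, 0.0155% and 1.31% at S1, 12.8%, 9.3% and 13.4% at S2 and 0.433%, 0.635% and 1.15% at S3. It was 0.139%, 0.215% and 0.724% at S4 and 0.0487%, 0.351% and 0.0863% at S5. The 10 most abundant members held 74.7% of the members' S2 FPKM, so the share is mostly theirs. In LR the same 200 took 2.71%, 1.01% and 1.31% at S1, 6.22%, 5.96% and 7.3% at S2 and 2.83%, 3.04% and 1.81% at S3. It came down to 1.97%, 0.769% and 0.76% at S4 and 0.128%, 0.107% and 0.334% at S5. The 3 LR libraries of S2 lay above the other 12 LR libraries, as the 3 of LB, where this was chosen, lay above the other 12 of LB.

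**Figure D1:**
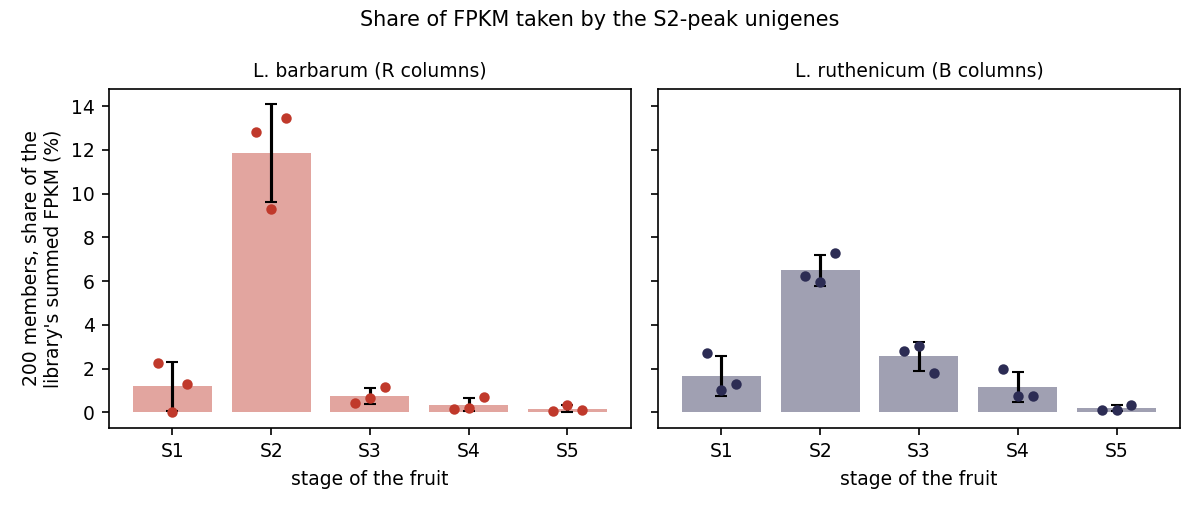
Share of the summed FPKM of each library (%, vertical axis) taken by the 200 members, by stage of the fruit, in L. barbarum (R columns, left) and L. ruthenicum (B columns, right). Points are libraries, bars are means and lines are the SD of 3 libraries; the S2 mean was 11.9% in L. barbarum, which chose the members, and 6.49% in L. ruthenicum, which did not.

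Not every LB library of a stage was alike. LB1-2 held the members far lower than LB1-1 and LB1-3: 137 of 200 were strictly lowest in it among the libraries of S1, against 30.1% of the unigenes tested. At the later stages 1 library each stood above the other pair, LB3-3 for 107 members, LB4-3 for 116 and LB5-2 for 100, against 31.1%, 33.5% and 34.7% of the unigenes tested. Within S2, LB2-2 was the lowest library for 130 members. The coefficient of variation of a member over the 3 LB libraries of S2 had a median of 29.9%, with a range of 2.72% to 92.9%. Read counts were not analysed here. From the spacing of the lowest values, depth differed by at most 1.67-fold among LB libraries and 2.06-fold among LR libraries. With LB1-2 left out of the rule, 160 of the 200 members were taken again, and the score of 57 members came out over 1.5 times lower.

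The members differed in how abundant they were and in how they left S2. Mean FPKM at S2 in LB ran up to 85173 and down to 5.99, with a median of 31.5, and 32 members were at 1000 FPKM or more, 28 between 100 and 1000, 117 between 10 and 100 and 23 below 10. By mean log2 level, the next highest LB stage was S1 for 99 members, S3 for 68, S4 for 27 and S5 for 6. Where LB1-2 was low, it pulled the S1 mean down. For example, TRINITY_DN84852_c2_g2, with S3 next, was at 11956, 1.25 and 6953 FPKM at S1 and at 3118, 5289.6 and 8539.8 FPKM at S3. Its mean FPKM was higher at S1, at 6303, than at S3, at 5649. The split without LB1-2 is not given here. All 3 S2 libraries lay above all 12 other LB libraries in 171 members, so that in the others at least 1 library of another stage reached the lowest of S2. In 13 members the other 12 libraries were all below 1 FPKM, and in 4 of these all were listed at 0.

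The highest score, 6.25, belonged to TRINITY_DN92390_c6_g4, and rests on LB1-2, without which it was 2.52, at rank 71. Of the 12 highest scores, 9 came out over 1.5 times lower without LB1-2, and TRINITY_DN100441_c2_g2, at rank 4 with all libraries, was then the highest, at 4.72. All 12 stayed among the 200, with scores of 2.28 to 4.72. In LB, TRINITY_DN92390_c6_g4 was at 1546, 0 and 887 FPKM at S1, 8349.8, 6705 and 7312 at S2, 31.5, 43.5 and 196 at S3, 3.25, 2.01 and 39.1 at S4 and 3.9, 4.63 and 0 at S5. In LR it was at 159, 89.3 and 186 FPKM at S1, 610.0, 559 and 798 at S2, 45.9, 4.63 and 3.25 at S3, 3.26, 4.99 and 2.66 at S4 and 1.75, 1.07 and 0 at S5. The S2 libraries of each species thus lay above every other library of that species. In LR the S2 level was higher than the mean of the other stages by 6.17 (SE 0.68, limma adjusted p = 0.0012) on the log2 scale, the largest difference of any member that was called.

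Ranks 2, 3 and 11 belonged to the same Trinity component, the part of a unigene's name before its last number, which groups assembled sequences that share stretches. Such unigenes can be copies of a gene or pieces of 1 gene, and reads that could be placed on more than 1 of them were not counted by the authors, so the level of each is uncertain. TRINITY_DN92390_c6_g3 was at 5034, 3637 and 4599 FPKM at S2 of LB and at 62.3, 51.7 and 66.5 FPKM at S2 of LR. TRINITY_DN92390_c6_g5 was at 2653, 1976 and 2098 FPKM at S2 of LB and at 154, 158 and 197 FPKM at S2 of LR. TRINITY_DN92390_c6_g2 was at 5452, 4672 and 3881 FPKM at S2 of LB and at 318, 338 and 453 FPKM at S2 of LR. These unigenes were far less abundant at S2 of LR than of LB. In LR, TRINITY_DN92390_c6_g5 rose at S2 by 5.76 (SE 0.60, limma adjusted p = 0.00094) and TRINITY_DN92390_c6_g2 by 5.99 (SE 0.79, limma adjusted p = 0.0034) over the mean of the other stages, while TRINITY_DN92390_c6_g3 was not called, at 4.65 (SE 1.06, limma adjusted p = 0.042). In LB1-2, where LB1-1 and LB1-3 held 272 to 885 FPKM, TRINITY_DN92390_c6_g3 and TRINITY_DN92390_c6_g5 were listed at 0 and TRINITY_DN92390_c6_g2 was at 2.42 FPKM.

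TRINITY_DN100441_c2_g2, at rank 4, was sharp in LB and not in LR. In LB it was at 2.05, 0 and 0.49 FPKM at S1, 55.5, 41.3 and 60.6 at S2, 0.65, 0 and 0 at S3, 0.6, 1.11 and 0 at S4 and 0.49, 0 and 0 at S5. In LR it was at 15, 0 and 0 FPKM at S1, 18.9, 10.4 and 17.6 at S2, 8.88, 16.6 and 4.33 at S3, 3.9, 0 and 4.67 at S4 and 1.49, 2.43 and 13.9 at S5, so that the S2 libraries overlapped those of S1 and S3 and 1 of S5. The LR difference was not called, at 2.18 (SE 1.10, limma adjusted p = 0.38). TRINITY_DN69817_c0_g1, at rank 7, likewise kept a broad course in LR. It was at 102, 57.5 and 181 FPKM at S2 of LB and at no more than 3.58 FPKM in the other 12 LB libraries. In LR it was at 128, 2.59 and 3.15 FPKM at S1, 311, 89 and 189 at S2, 109, 94.1 and 22.2 at S3, 45, 13.8 and 9.54 at S4 and 0, 0.23 and 0.47 at S5. Its S2 level in LR passed the test against S5, at 7.94 (SE 1.30, limma adjusted p = 0.0043), and not against the mean of the other stages, at 4.15 (SE 1.03, limma adjusted p = 0.058).

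The rest of the top 12 came from 4 more components. TRINITY_DN72569_c0_g1 had mean FPKM of 600.1, 8611, 224, 50.9 and 40.3 from S1 to S5 in LB and of 979, 3783, 1564, 732 and 37.5 in LR, and rose at S2 of LR by 3.23 (SE 0.48, limma adjusted p = 0.006). Its partner TRINITY_DN72569_c0_g2 was at 5019 ± 1127 FPKM (SD, n = 3) at S2 of LB and at 1782 ± 63.7 FPKM at S2 of LR, where it rose by 3.28 (SE 0.49, limma adjusted p = 0.0061). TRINITY_DN78260_c14_g1 was at 39294 ± 6819 FPKM at S2 of LB and at 16585 ± 2336 FPKM at S2 of LR, and rose there by 4.20 (SE 0.65, limma adjusted p = 0.0069). All of these peaked at S2 in both species, with S3 or S1 next. TRINITY_DN78260_c14_g5 went the same way, at 7185 ± 1318 FPKM at S2 of LB and 2985 ± 312 FPKM at S2 of LR, where it rose by 4.22 (SE 0.57, limma adjusted p = 0.0036). TRINITY_DN92390_c7_g4 was at 1060.3, 930.1 and 939 FPKM at S2 of LB and at 38.9, 35.3 and 57.1 FPKM at S2 of LR, and rose there by 4.73 (SE 0.38, limma adjusted p = 0.00023). TRINITY_DN97087_c2_g2 was an exception in this group. It was at 118, 149 and 194 FPKM at S2 of LB, and in LR at 117, 93.2 and 126 FPKM at S2 and 81.9, 114 and 40.2 FPKM at S3, so that these stages overlapped, and it was not called, at 2.89 (SE 0.66, limma adjusted p = 0.044).

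**Figure D2:**
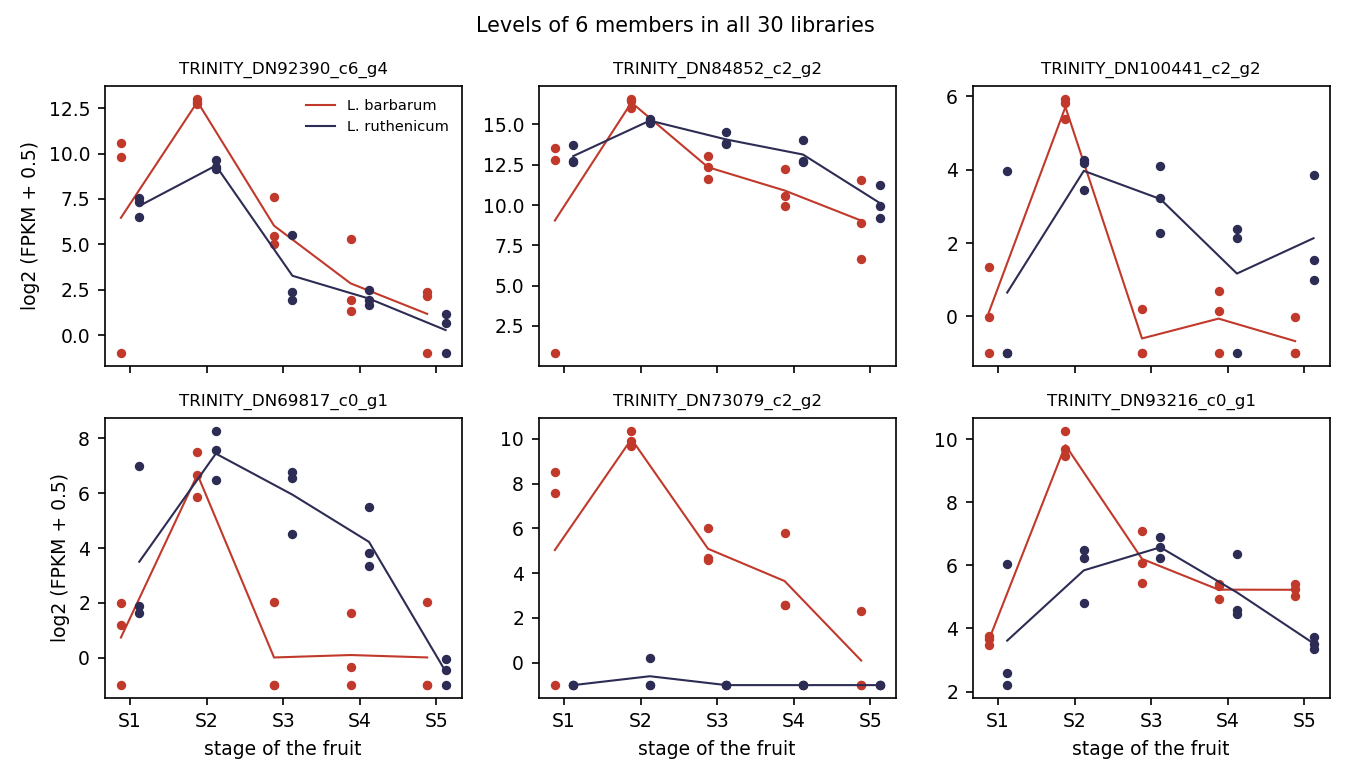
Level of 6 members as log2 (FPKM + 0.5) (vertical axis, a log scale that differs between panels) by stage of the fruit, with 1 point per library and lines through the means of 3 libraries, in L. barbarum (red) and L. ruthenicum (dark blue). TRINITY_DN92390_c6_g4 and TRINITY_DN84852_c2_g2 peaked at S2 in both species, TRINITY_DN100441_c2_g2 and TRINITY_DN69817_c0_g1 had a broader course in L. ruthenicum, TRINITY_DN73079_c2_g2 was listed at 0 in 14 of 15 L. ruthenicum libraries, and TRINITY_DN93216_c0_g1 had its highest L. ruthenicum mean at S3.

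The 5 most abundant members all had their highest level at S2 in LR too, and all were called there. TRINITY_DN84852_c2_g2 was at 11956, 1.25 and 6953 FPKM at S1 of LB, 89344, 67163 and 99011 at S2, 3118, 5289.6 and 8539.8 at S3, 975, 1489 and 4796 at S4 and 102, 2986 and 469 at S5. The LR libraries held it at 13504, 6387 and 6869 FPKM at S1, 42191, 34689.8 and 39380.3 at S2, 14381, 23399 and 14968 at S3, 16637, 6821 and 6380.2 at S4 and 981, 587 and 2462 at S5. The 3 S2 libraries were the highest in both species, and every LR library of S3 and S4 was above every LB library of the same stage. The rise at S2 of LR was 2.65 (SE 0.42, limma adjusted p = 0.0084). TRINITY_DN85075_c12_g1 came next, at 50692, 36840.1 and 48928 FPKM at S2 of LB and 25379, 23214 and 27771 FPKM at S2 of LR, with a rise in LR of 3.76 (SE 0.47, limma adjusted p = 0.0024). TRINITY_DN78260_c14_g3 was at 37461, 24852 and 29418 FPKM at S2 of LB and 29138, 34739.8 and 36966 FPKM at S2 of LR, with a rise in LR of 4.15 (SE 0.56, limma adjusted p = 0.0036). TRINITY_DN92390_c7_g3 was at 25605, 18734 and 27961 FPKM at S2 of LB and 8763, 8147 and 10812 FPKM at S2 of LR, with a rise in LR of 4.22 (SE 0.56, limma adjusted p = 0.0034). With a block for the replicate number in the fit it was not called (limma adjusted p = 0.011). TRINITY_DN78260_c14_g1, described above among the highest scores, was the third most abundant. In LB1-2 these 5 members were between 0.52 and 1.44 FPKM, while LB1-1 and LB1-3 held between 2422 and 11956 FPKM. The files pair none of these names with a gene, so what they encode is not given here.

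The members fell into 160 Trinity components. Of the members 132 were alone in theirs, 21 components held 2 and 7 held 3 or more, 26 members together. The largest was TRINITY_DN92390_c7, all 6 of whose unigenes were members. Their summed FPKM was 60726, 46754 and 67043 at S2 of LB and 18709, 18161 and 24231 at S2 of LR, and 4 of the 6 rose at S2 of LR. In TRINITY_DN78260_c14, with 4 of 5 unigenes, the sum was 92485, 63742 and 81444 FPKM at S2 of LB and 46979, 55263 and 60705 FPKM at S2 of LR, and all 4 rose. In TRINITY_DN85075_c12, with 3 of 4 unigenes, the sum was 65025, 46712 and 60881 FPKM at S2 of LB and 30347, 29022 and 34591 FPKM at S2 of LR, and all 3 rose. These components were high in both species at S2. Another pair was high at S2 of LB and far lower at S2 of LR. TRINITY_DN81843_c3, with 3 of 4 unigenes, summed to 22359, 15316 and 21003 FPKM at S2 of LB and to 175, 163 and 172 FPKM at S2 of LR. Its S2 libraries were still the highest of LR, where the other stages reached at most 140 FPKM. Limma called 0 of its 3 members, whose LR differences were 2.84, 3.11 and 3.35 (limma adjusted p = 0.023, 0.34 and 0.017). TRINITY_DN73079_c2, with all 3 unigenes, summed to 2322, 1354 and 951 FPKM at S2 of LB and to 5.55, 11.8 and 12.3 FPKM at S2 of LR, again with 0 called. Its most abundant member TRINITY_DN73079_c2_g2 was at 1315, 956 and 829 FPKM at S2 of LB and, in LR, at 0.64 FPKM in LR2-1 and listed at 0 in the other 14 libraries. At S1 of LB the component summed to 666, 0 and 316 FPKM. Without LB1-2, the LB score of TRINITY_DN73079_c2_g2 fell from 4.61 to 1.65, at rank 201. That of TRINITY_DN73079_c2_g1 fell from 2.13 to -0.74, at rank 14721. Both were then outside the 200, so their place rests on that library. Unigenes of 1 component are not independent of each other, so the counts below are counts of unigenes.

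In LR, where the S2 level was free to vary, most members were again highest at S2. The highest LR mean of log2 (FPKM + 0.5) was at S1 in 18 members, at S2 in 130, at S3 in 16, at S4 in 5 and at S5 in 13, and 18 members were listed at 0 in all 15 LR libraries. Of all 111217 unigenes tested, those that reached 1 FPKM in 3 or more of the 30 libraries, 21.6% had their highest LR mean at S2, and 25.3% at S1, 7.71% at S3, 6.04% at S4 and 27.3% at S5. The score of the rule, computed in LR, was above 0 in 106 members, against 5.18% of the unigenes tested and 4.92% of those that were at 5 FPKM or more in all S2 libraries of LB. The 3 LR libraries of S2 lay above all 12 others in 74 members, against 1.04% of the unigenes tested, and below all others in 0 members, against 0.0656%. Taking the 200 highest scores in LR by the same rule gave 58 of the members, 29% of either list, whereas 0.384% of the unigenes at 5 FPKM or more in all S2 libraries of LB were among these 200 of LR. When the members were taken without LB1-2, 114 had their highest LR mean at S2 and 91 a score above 0.

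**Figure D3:**
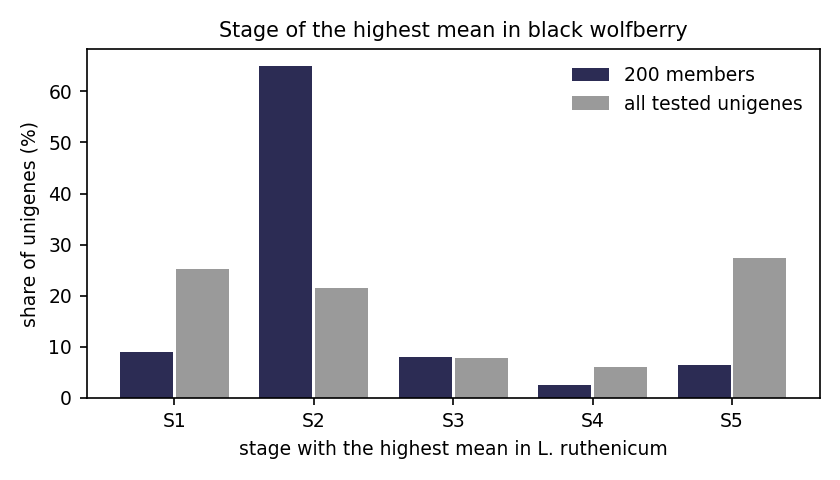
Share of unigenes (%, vertical axis) whose highest L. ruthenicum mean lay at each stage, for the 200 members (dark blue) and for all 111217 unigenes tested (grey). S2 held 130 members against 21.6% of all tested; the 18 members listed at 0 in all 15 L. ruthenicum libraries have no bar.

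The test compared S2 with the mean of S1, S3, S4 and S5 over the 15 LR libraries, with limma on log2 (FPKM + 0.5), and a unigene was called where it differed by at least 1 with a Benjamini-Hochberg adjusted p under 0.01. It called 44 of the 200 members higher at S2 of LR, against 0.756% of the unigenes tested. It called 0 lower, against 0.213% of the unigenes tested. At an unadjusted p under 0.05, 120 members were higher and 0 lower, where 12.3% of the unigenes tested were higher. Among unigenes at 5 FPKM or more in all S2 libraries of LB, 1.29% were called higher. The median difference of the members was 1.80, with quartiles of 0.49 and 3.27, and that of all unigenes tested was 0.09. The difference was positive in 164 members, negative in 18 and 0 in the 18 that LR lists at 0.

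Fewer members were called without single LR libraries. The count was 26 without LR2-1, 9 without LR2-2 and 8 without LR2-3, where 1.35%, 0.225% and 0.28% of the unigenes tested were called higher. It was 27 without LR4-2, 29 without LR4-3 and 28 without LR5-2, against 0.458%, 0.537% and 0.457%. Median-of-ratios scaling gave 29, against 0.651%. A fit with a block for the replicate number gave 25, against 0.533%. The p-values given for single unigenes come from the fit without this block. Among the unigenes that reached 1 FPKM in 3 or more LR libraries, 1.08% were called higher in the fit that gave 44. A fit of these alone called 69 of the 166 members left, against 1.54% of the unigenes it tested.

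**Figure D4:**
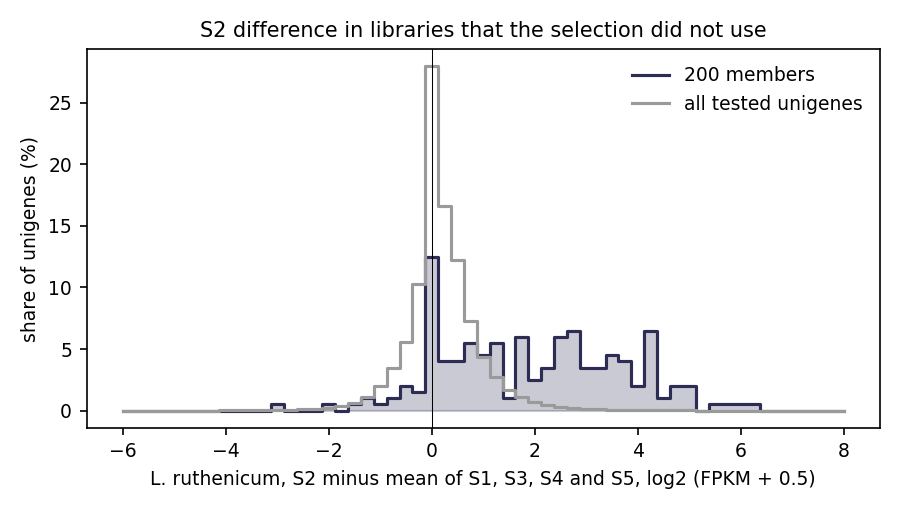
Difference between S2 and the mean of S1, S3, S4 and S5 in L. ruthenicum on the log2 (FPKM + 0.5) scale (horizontal axis), as the share of unigenes (%, vertical axis) in bins of 0.25, for the 200 members (dark blue, filled) and all 111217 unigenes tested (grey). The members had a median of 1.80 and all tested unigenes one of 0.09; the members' bin at 0 includes the 18 listed at 0 throughout L. ruthenicum.

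Set against each stage singly, the S2 level of LR passed the test in more members against immature and mature fruit than against young and colouring fruit. The share called higher among all unigenes tested was ordered in the same way, so this order is not particular to the members. Against S1, limma called 0 members higher and 0 lower (0.0108% and 0.0539% of the unigenes tested), with a median difference of 1.59 among members and of 0 among all tested, and 107 were higher and 1 lower at an unadjusted p under 0.05, where 3.98% of the unigenes tested were higher. Against S3, 3 were higher and 0 lower (0.239% and 0.0728%), with medians of 1.12 and 0.21, and 79 were higher and 3 lower at an unadjusted p under 0.05, where 13.1% of the unigenes tested were higher. Against S4, 31 were higher and 0 lower (1.8% and 0.34%), with medians of 1.91 and 0.31. At an unadjusted p under 0.05, 111 were higher and 1 lower, where 20.2% of the unigenes tested were higher. Against S5, 77 were higher and 0 lower (2.06% and 1.26%), with medians of 2.80 and 0. At an unadjusted p under 0.05, 130 were higher and 3 lower, where 10.6% of the unigenes tested were higher. No member was called against each of the other stages at once, which 0.00899% of the unigenes tested were. The LR difference between S2 and S1 was positive in 156 members, negative in 25 and 0 in 19.

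The counts against S1 were 4 without LR1-1, 1 without LR1-3 and 2 without LR2-2, and those against S3 were 1 without each of LR1-2, LR2-3, LR3-3, LR4-2, LR4-3, LR5-1 and LR5-2. Against S4 they were 9 without LR2-2, LR2-3, LR4-2 or LR4-3, 20 without LR2-1, 19 without LR5-2 and 13 with median-of-ratios scaling, and 59 with the filter on LR alone, 57 with array weights and 44 with all 30 libraries fitted. Against S5 they were 49 without LR5-1 and 51 without LR5-2. The members called against S3 were TRINITY_DN92390_c6_g4, TRINITY_DN92390_c7_g4 and TRINITY_DN75254_c2_g3. The last was at 105, 131 and 63.9 FPKM at S2 of LB. Its LB score of 2.20 fell to -0.21 without LB1-2, at rank 5104, so its place among the members rests on that library. In LR it was at 18, 23.6 and 24.4 FPKM at S1, 61.1, 101 and 61.5 at S2 and 10.2, 8.17 and 6.34 at S3, with no overlap between S2 and either neighbour, and its S2 minus S3 difference was 3.08 (SE 0.44, limma adjusted p = 0.0095).

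The 12 called members with the largest LR difference included 5 named so far and TRINITY_DN92390_c7_g1, at 7467 ± 1735 FPKM (SD, n = 3) at S2 of LB and 1761 ± 335 FPKM at S2 of LR, which rose there by 4.32 (SE 0.52, limma adjusted p = 0.002). The other members came from components not yet named. TRINITY_DN91341_c2_g1 was at 836, 376 and 877 FPKM at S2 of LB and at 1072, 754 and 799 FPKM at S2 of LR, about as high in both, and rose there by 5.00 (SE 0.75, limma adjusted p = 0.0061). TRINITY_DN100531_c2_g1 was at 4684, 3248 and 2921 FPKM at S2 of LB and at 461, 813 and 763 FPKM at S2 of LR, and rose there by 4.92 (SE 0.61, limma adjusted p = 0.0024). TRINITY_DN96164_c3_g1 was at 3550.3, 2055 and 2883 FPKM at S2 of LB and at 321, 480.1 and 544 FPKM at S2 of LR, and rose there by 4.78 (SE 0.55, limma adjusted p = 0.0016). Both were several-fold more abundant in LB. TRINITY_DN69621_c1_g4 was at 2227, 1708 and 2157 FPKM at S2 of LB and at 193, 162 and 229 FPKM at S2 of LR, and rose there by 4.67 (SE 0.49, limma adjusted p = 0.00098). TRINITY_DN90121_c0_g1 was at 114, 54 and 135 FPKM at S2 of LB and at 266, 147 and 161 FPKM at S2 of LR, and rose there by 4.57 (SE 0.71, limma adjusted p = 0.0074). TRINITY_DN71068_c3_g1 was at 95.2, 49.6 and 90.8 FPKM at S2 of LB and at 22.6, 59 and 26 FPKM at S2 of LR, and rose there by 4.33 (SE 0.71, limma adjusted p = 0.0099). It was listed at 0 in all S4 and S5 libraries of both species. The calls of TRINITY_DN92390_c6_g4, TRINITY_DN92390_c6_g5, TRINITY_DN92390_c7_g4 and TRINITY_DN69621_c1_g4 held under all 23 alternatives, and those of the other 8 were lost without LR2-2, without LR2-3 and in part elsewhere. The call was lost in 17 of the 23 for TRINITY_DN71068_c3_g1, in 15 for TRINITY_DN90121_c0_g1, in 11 for TRINITY_DN91341_c2_g1 and in 2 to 4 for the rest. With LB1-2 left out of the rule, TRINITY_DN91341_c2_g1, TRINITY_DN90121_c0_g1, TRINITY_DN71068_c3_g1 and TRINITY_DN96164_c3_g1 were no longer among the 200. Their LB scores were then 0.40, 0.18, 0.71 and 1.47, so their place among the members rests on that library.

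How often a member was called in LR went with its abundance in LB. Of the 32 members at 1000 FPKM or more at S2 of LB, 20 were called higher at S2 of LR and 31 had their highest LR mean there. It was 8 of 28 between 100 and 1000 FPKM, 16 of 117 between 10 and 100 and 0 of 23 below 10. Low FPKM also means few reads and a difference that the offset of 0.5 shrinks, and the part of this in the counts was not tested. By the stage next to S2 in LB, 26 of the 99 members with S1 next, 17 of 68 with S3 next, 1 of 27 with S4 next and 0 of 6 with S5 next were called. By rank, 23 of the first 50 members were called, 7 of the next 50, 11 of the 50 after these and 3 of the last 50. Over all unigenes tested, 0.756% were called higher. Shares of all tested unigenes in such classes were not computed, so these splits cannot be read as particular to the members.

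The other 12 of the 32 most abundant members were not called, 11 of them with their highest LR mean at S2. They are named here after their values were seen. TRINITY_DN87170_c2_g1 was at 5161, 2716 and 2574 FPKM at S2 of LB. Its LR libraries were at 2000.1, 1042 and 2024 FPKM at S1, 4745, 6517 and 6661 at S2, 2078, 2227 and 1079.8 at S3, 1237, 543 and 769.6 at S4 and 12.5, 19.96 and 162 at S5, and its difference was 3.48 (SE 0.62, limma adjusted p = 0.014). TRINITY_DN92390_c7_g5 was at 6669.9 ± 681 FPKM (SD, n = 3) at S2 of LB and 3279 ± 665 FPKM at S2 of LR, with a difference of 4.47 (SE 0.93, limma adjusted p = 0.029). Both thus missed the threshold of the test with high levels at S2 of LR. TRINITY_DN76303_c0_g1 was the exception in stage. It was at 2883, 5369.6 and 8424 FPKM at S2 of LB, and in LR at 710.1, 21.2 and 27 FPKM at S1, 1956, 435 and 1073 at S2, 1136, 1028 and 889 at S3, 1127, 498 and 322 at S4 and 23.9, 9.5 and 80.3 at S5. The S2 and S3 libraries of LR overlapped, and the difference was 2.39 (SE 0.99, limma adjusted p = 0.27). The remaining 9 included the 3 members of TRINITY_DN81843_c3, TRINITY_DN92390_c6_g3 and TRINITY_DN73079_c2_g2, given above.

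Other members showed no peak at S2 of LR. The 18 listed at 0 in all 15 LR libraries had mean FPKM of 6.62 to 35.3 at S2 of LB, with a median of 11.6, and so belonged to the less abundant members. The most abundant were TRINITY_DN101887_c0_g2, at 31.8, 27.4 and 46.8 FPKM at S2 of LB, and TRINITY_DN111655_c0_g1, at 16.5, 39.8 and 48.4 FPKM. TRINITY_DN98702_c0_g1 was at 24.3, 31.6 and 26.6 FPKM, TRINITY_DN63151_c0_g1 at 38.9, 17.7 and 16 and TRINITY_DN96937_c2_g3 at 13.3, 24.8 and 21.9 FPKM at S2 of LB. TRINITY_DN98702_c0_g1 was also at 53.4 FPKM in LB3-3 and 44.8 FPKM in LB4-3, above every S2 library of LB. It was listed at 0 in LB3-1, LB3-2 and LB4-2, which lowered the means that its score uses. In all, 23 members stayed below 1 FPKM in every LR library, among them TRINITY_DN73079_c2_g2, and 177 reached 1 FPKM in at least 1 LR library. A value listed at 0 has no stated limit, so no different course in LR can be read from it. It also holds for the unigene and not for its component. TRINITY_DN96748_c2_g1 was at 0 throughout LR, while TRINITY_DN96748_c2_g2 of its component was at a mean of 11.2 FPKM at S2 of LR.

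TRINITY_DN93216_c0_g1, singled out after its values were seen, had its highest LR mean at S3. In LB it was at 13.1, 10.6 and 12.2 FPKM at S1, 710.1, 822 and 1233 at S2, 43, 67.3 and 136 at S3, 29.8, 40.2 and 42.4 at S4 and 37.6, 42 and 31.8 at S5. The LR libraries had 65.2, 5.58 and 4.11 FPKM at S1, 74.4, 27.7 and 88.6 at S2, 75.3, 119 and 95 at S3, 82.5, 21.5 and 23.7 at S4 and 10.9, 9.74 and 12.6 at S5. Its LB libraries of S2 stood apart from all others, while in LR those of S2 overlapped those of S1, S3 and S4, and the LR difference of S2 from the other stages was 1.13 (SE 0.72, limma adjusted p = 0.54).

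Of the 200 members, 4 stand in a pathway list of the study, 2 of flavonoid biosynthesis and 2 of glycerolipid metabolism. From its lists 605 unigenes could be read, and 599 of these are among the 111217 unigenes tested. The study chose these lists on the same libraries, and only the first members of the longer lists could be read. Flavonoid biosynthesis builds chalcones from a phenylpropanoid precursor and leads to flavonols and anthocyanins. TRINITY_DN69299_c3_g1 was at 4.1, 2.43 and 7.97 FPKM at S1 of LB, 22.7, 28.1 and 35.4 at S2, 1.49, 0.69 and 4.07 at S3, 0.07, 0.48 and 0 at S4 and 4.37, 1.85 and 4.56 at S5. The LR levels were 19.4, 2.57 and 1.17 FPKM at S1, 43.1, 14.2 and 22.1 at S2, 42.3, 45.9 and 119 at S3, 94.2, 62.9 and 116 at S4 and 156, 170.4 and 524 at S5. The S2 libraries were the highest of LB, whereas in LR every S5 library was above every library of the earlier stages. TRINITY_DN73389_c1_g1, of the same Trinity component as CHS, followed it, with mean FPKM of 3.44, 27.1, 2.4, 0.213 and 2.56 from S1 to S5 in LB and of 5.89, 23, 68.8, 103 and 247 in LR. The S2 level of LR was called against the other stages in neither, at -1.03 (SE 0.69, limma adjusted p = 0.57) and -1.14 (SE 0.68, limma adjusted p = 0.49). Against S5 alone the differences were -3.31 (SE 0.87, limma adjusted p = 0.047) and -3.22 (SE 0.86, limma adjusted p = 0.049), neither of them called.

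CHS itself was no member. It had mean FPKM of 40.9, 41.9, 18.3, 13.1 and 39.3 from S1 to S5 in LB and of 10.8, 16.9, 252, 742 and 3414 in LR. LDOX, at rank 238 of the LB scores, lay outside the 200. Of the 18 readable unigenes of flavonoid biosynthesis, limma called 1 higher and 2 lower at S2 of LR than at the other stages. Over all unigenes tested the shares were 0.756% and 0.213%. The 18 had a median difference of 1.14, against 0.09 over all unigenes tested. Those lower were CHS and TRINITY_DN69258_c7_g1. The one that was higher, TRINITY_DN72186_c2_g1, was no member. It had mean FPKM of 14.7, 18.4, 0.917, 0.15 and 0.22 from S1 to S5 in LB and of 48.4, 40.8, 12.4, 8.09 and 1.28 in LR.

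The members of glycerolipid metabolism, the pathway that joins fatty acids to glycerol for membrane lipids and storage oil, peaked at S2 in both species. TRINITY_DN96748_c2_g2 was at 5.39, 0.16 and 3.95 FPKM at S1 of LB, 27.1, 12.5 and 16.2 at S2, 0.52, 0.39 and 1.35 at S3, 0.12, 0.46 and 2.74 at S4 and 0, 1.41 and 0.46 at S5. In LR the unigene was at 2.6, 3.49 and 4.84 FPKM at S1, 8.57, 11.5 and 13.6 at S2, 0.99, 3.65 and 1.72 at S3, 1.93, 0.29 and 1.97 at S4 and 0, 0 and 0.42 at S5. Its S2 libraries were the highest of each species, and the rise in LR was 2.70 (SE 0.40, limma adjusted p = 0.0057). TRINITY_DN71392_c6_g1 had mean FPKM of 4.86, 25.6, 1.29, 1.47 and 0.633 from S1 to S5 in LB and of 6.15, 16.6, 3.36, 1.85 and 0.367 in LR, where it rose at S2 by 2.66 (SE 0.35, limma adjusted p = 0.0031). These were the 2 unigenes called higher among the 18 readable ones of the list, 0 were lower, and the median of the list was -0.03. Over all unigenes tested, 0.756% were called higher and 0.213% lower. With LB1-2 left out of the rule, both unigenes fell outside the 200. TRINITY_DN96748_c2_g2 then had an LB score of 1.34, at rank 295, and TRINITY_DN71392_c6_g1 one of 1.34, at rank 294. The lists name no enzyme for either.

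The other lists held no member, but each has so few of the unigenes tested that this says little about its pathway. They included plant hormone signal transduction, starch and sucrose metabolism, carotenoid biosynthesis, zeatin biosynthesis, which makes a cytokinin, and both photosynthesis lists. At S2 of LR, against the mean of the other stages, limma called 5 of 18 unigenes higher and 0 lower in photosynthesis. It called 6 of 18 and 0 in its antenna proteins, and 3 of 18 and 0 in carotenoid biosynthesis. Over all unigenes tested, 0.756% were called higher and 0.213% lower. Such a call does not need the highest level at S2, as TRINITY_DN72186_c2_g1, higher at S1 of LR, shows. The median differences of these lists were 1.74, 2.06 and -0.66. In phenylpropanoid biosynthesis, the largest list, 2 of the 111 tested were higher and 7 lower, with a median of 0.20. Other lists with more calls lower than higher included galactose metabolism, with 0 of 18 higher and 7 lower and a median of -1.51. In cyanoamino acid metabolism 1 of 27 was higher and 6 were lower. In flavone and flavonol biosynthesis 1 of 16 was higher and 4 were lower. Not every list is given here.

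Members were mostly more abundant at S2 of LB than at S2 of LR, which their choice by LB levels favours. The median difference between LR and LB at S2 was -1.97 on the log2 scale, and 17 of 200 members had a higher mean FPKM in LR. Across the 200 members the mean log2 levels at S2 of the 2 species had a Pearson r of 0.80 and a Spearman rho of 0.74. The S2 difference from the other stages, with a median of 4.14 in LB and 1.80 in LR, had a Spearman rho of 0.63. These are given as descriptions across unigenes, many of which share a component. The 17 members included TRINITY_DN78260_c14_g3 of the most abundant ones. They also included unigenes that were scarce in LB, named after their values were seen. TRINITY_DN90660_c0_g2 was at 18.9, 12.2 and 25.4 FPKM at S2 of LB and at 5369.9, 4509 and 5269 FPKM at S2 of LR, with a difference from the other LR stages of 2.63 (SE 0.47, limma adjusted p = 0.015). TRINITY_DN79660_c3_g1 was at 14.3, 8.94 and 15.7 FPKM at S2 of LB and at 1025, 1475 and 1442 FPKM at S2 of LR, with a difference of 5.54 (SE 2.23, limma adjusted p = 0.26). Neither was called, and both had their highest LR mean at S2.

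**Figure D5:**
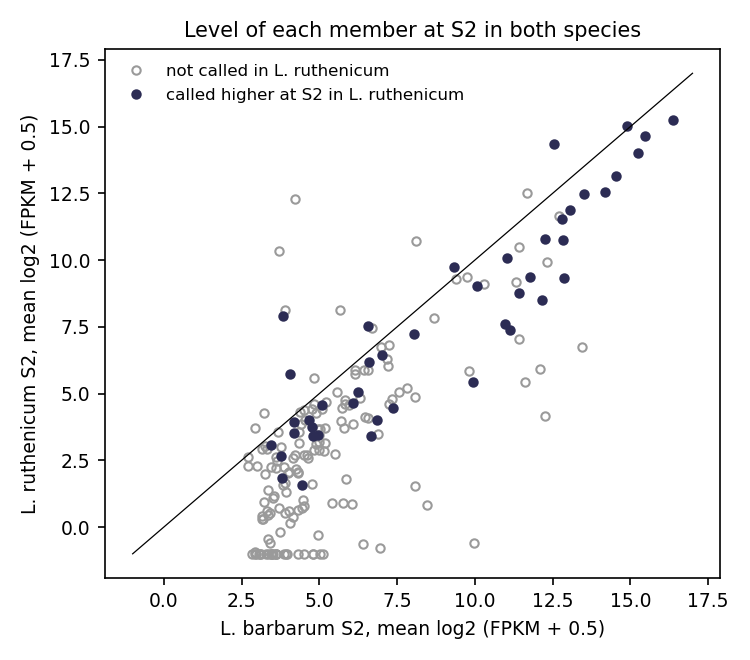
Mean log2 (FPKM + 0.5) of each of the 200 members at S2 of L. barbarum (horizontal axis) and at S2 of L. ruthenicum (vertical axis), both log scales, with the line of equal levels. Filled points are the 44 members called higher at S2 than at the other stages in L. ruthenicum, most of them at the upper right; open points are the others, with 18 at the floor of -1 because they were listed at 0 in L. ruthenicum.

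Around the limit of 200 the choice is arbitrary. Just inside it, TRINITY_DN98702_c0_g1 had a score of 1.86 with 24.3, 31.6 and 26.6 FPKM at S2 of LB, TRINITY_DN74189_c1_g2 had 1.86 with 15.7, 16.8 and 12.6 FPKM and TRINITY_DN71816_c1_g3 had 1.86 with 13.6, 15.5 and 25.3 FPKM. Just outside it, TRINITY_DN101851_c2_g5 had 1.85 with 7.35, 8.31 and 7.96 FPKM, TRINITY_DN102314_c10_g1 had 1.85 with 35.7, 64 and 17.5 FPKM and TRINITY_DN91251_c0_g2 had 1.85 with 19, 15.5 and 21.7 FPKM. At S2 of LR, TRINITY_DN71816_c1_g3 was at 9.97, 2.95 and 5.41 FPKM inside the limit and TRINITY_DN91251_c0_g2 at 7.69, 11.9 and 19 FPKM outside it. Members just inside thus scored almost the same as unigenes that were left out, and neighbours on either side were listed at 0 in LR, TRINITY_DN98702_c0_g1 inside and TRINITY_DN101851_c2_g5 and TRINITY_DN102314_c10_g1 outside.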

How the data were processed

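RNA of whole fruit was sequenced on an Illumina instrument in 30 libraries, 3 for each of 5 stages of LB and of LR. Reads were trimmed by the authors with Cutadapt 1.7.1 and assembled with Trinity into unigenes clustered with Corset, and uniquely placed reads were turned into FPKM values, the unit of the deposited table. Bowtie2 is named in the submitters' processing notes with no version. Read counts per unigene, unigene sequences and the study's read totals were not used here, so no counting interval is given and a value listed at 0 has no stated limit.

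Groups followed the column codes of the table, whose R and B the study's legend gives to LB and LR, against the species named in the sample titles. The members and the lists were chosen with earlier results of these data known. LB values were only described. LR values were tested with limma 3.58.1 in R 4.3.3 (lmFit, contrasts and eBayes with trend and robust settings) on log2 (FPKM + 0.5) of the 15 LR libraries in 5 groups, with 10 residual degrees of freedom, over the 111217 unigenes that reached an FPKM of 1 in 3 or more libraries. All 200 members pass this filter through their S2 libraries of LB, and 166 also pass it on LR libraries alone. A call needed a Benjamini-Hochberg adjusted p under 0.01 and a difference of at least 1 on the log2 scale, the thresholds of the study between species. Differences on this scale understate those of unigenes with low FPKM. The script was tested on simulated data. Selection and counts used Python 3.11.15 with pandas 2.3.3 and numpy 2.4.6, and figures matplotlib 3.10.9.

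Members named with values were the 12 with the highest score, the 12 called with the largest LR difference, the 5 with the highest FPKM, the 5 with the highest FPKM among those at 0 in LR, all in a pathway list of the study, and the 3 on either side of the limit. Up to 5 components with 3 or more members were named. Others are said to be named after their values were seen. Alternatives changed the offset, the filter, the libraries in the fit, the scaling, array weights, a replicate block and, in turn, each library. An alternative that took the members without LB1-2 was chosen after seeing the data.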

Additional observations from a re-analysis of the deposited data

How the results depend on the processing

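The 44 members called higher at S2 than at the other stages of LR were 30 with an offset of 0.1, 50 with an offset of 1, 37 with the filter of FPKM above 0 in 3 of 30 libraries, 54 with all 30 libraries fitted, 41 with array weights, 69 with the filter on LR alone and 29 with median-of-ratios scaling. Leaving out 1 LR library gave 8 to 57. Called above S3, in place of 3, were 0 with an offset of 0.1, 1 with the filter of FPKM above 0, 8 with the filter on LR alone, 5 with all 30 libraries, 1 with median-of-ratios scaling, 6 with array weights, 0 with the 6 libraries of S2 and S3 alone, where 89 had an unadjusted p under 0.05, and 1 to 4 without 1 LR library. Called above S1, in place of 0, were 2 with all 30 libraries and 0 to 4 without 1 LR library. Called above every other stage, in place of 0, were 2 with all 30 libraries and 0 to 2 without 1 LR library. No member was called lower at S2 than at the other stages in the alternatives planned, and with members taken without LB1-2, chosen after seeing the data, 1 was lower and 33 were higher. The cause of these shifts was not tested. Median-of-ratios scaling moved the median of all tested unigenes against S3 to 0, against 0.21 without it, and against S4 to 0, against 0.31. The members' medians were then 0.66 against S3, 1.35 against S4 and 1.48 against the other stages.

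The LR count with the highest mean at S2 was 122 with median-of-ratios scaling and 128 to 133 without 1 LR library, and the count with a score above 0 was 92 and 102 to 118. Membership was less stable. Of the 200, 174 were taken again with an offset of 0.1, 187 with an offset of 1, 184 with median-of-ratios scaling, 165 with a minimum of 2 FPKM, 144 with a minimum of 10 FPKM and 120 to 197 without 1 LB library, 127, 120 and 128 of them without LB2-1, LB2-2 and LB2-3.

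The labels do not say that a replicate number stands for the same tree, and the main fit did not pair libraries by it. Deviations of same-numbered LR libraries had correlations of -0.0228 to 0.229, with a median of 0.0635 and 10 of 30 over 0.1. Those of other pairs were -0.163 to 0.0911, with a median of -0.0511 and 0 over 0.1. All 15 libraries correlated best with their own number, so same-numbered libraries varied together, which the main fit leaves out. Why they did was not tested. With the replicate block, 25 members were called higher at S2 than at the other stages (0.533% of the unigenes tested), 1 higher than at S3 and 20 higher than at S4, and of the 12 named called members TRINITY_DN91341_c2_g1, TRINITY_DN90121_c0_g1, TRINITY_DN71068_c3_g1 and TRINITY_DN92390_c7_g3 lost the call.

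Of the 23 members below 10 FPKM at S2 of LB, limma called 0 and 6 were at 0 in all LR libraries, and what depth adds to this was not tested.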

Other observations

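Members that were highest late in LR are given as values, chosen after they were seen. Beside the flavonoid pair, the highest mean FPKM at S5 of LR among the 13 members with their LR maximum there belonged to TRINITY_DN82677_c3_g1 and TRINITY_DN72286_c2_g6. TRINITY_DN82677_c3_g1 had mean FPKM of 20.8 at S2 of LB, and of 3.76, 15.6, 11.99, 11.9 and 29.3 from S1 to S5 in LR. TRINITY_DN72286_c2_g6 had 10.8 at S2 of LB, and 12.3, 4.24, 10.7, 6.95 and 24.3 from S1 to S5 in LR. Neither was called in either direction by limma at S2 against the other stages, with differences of 0.49 (adjusted p = 0.81) and -1.59 (adjusted p = 0.7).

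Among the 18 members with their LR maximum at S1, TRINITY_DN69714_c2_g1 was the most abundant there. It had mean FPKM of 272 at S2 of LB, and of 40.7, 37.5, 10.3, 2.08 and 1.11 from S1 to S5 in LR, with an S2 difference of 2.37 (limma adjusted p = 0.085).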
